A study of Mus musculus with 3 samples.

Results

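Long noncoding RNAs known to stay in the nucleus were followed in 3 single-cell libraries of mouse neural progenitors. They were Malat1, Neat1, Meg3, Rian, Miat and Kcnq1ot1, taken by symbol as 6 of the 32285 genes in the count matrices. Each was read in cells, meaning barcodes with at least 3000 UMIs (unique molecules counted), at least 500 genes and at most 20% UMIs of mitochondrially encoded genes. Each was also read in barcodes of 10 to 100 UMIs, which hold RNA outside called cells.

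Long noncoding RNAs of this kind act where they are made. Malat1 gathers in nuclear speckles, the stores of splicing factors, and Neat1 is the scaffold of paraspeckles, nuclear bodies that grow under stress. Miat forms its own nuclear domains, Meg3 and Rian come from the maternal chromosome of the Dlk1-Dio3 imprinted region, and Kcnq1ot1 is made from the paternal chromosome and silences neighbouring genes in cis. Because they sit in the nucleus, their level relative to messenger RNA is often read as a sign of how much of a barcode's RNA is nuclear.

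The progenitors came from the brains of postnatal day 1 mice, whose strain and number the labels do not give, and grew as neurospheres with 20 ng/mL epidermal growth factor. Then 50000 cells were plated on polystyrene dishes or on electroporation devices, both coated with poly-D-lysine, and kept for 16 h. The 3 groups, each of 1 library, were a control, cells given bulk electroporation with a Nucleofector (the bulk library) and cells given localized electroporation with 400 pulses of 20 V on the device (the localized library). All were collected 4 h after treatment, and 10000 cells per group were loaded for sequencing of transcript 3' ends. No cargo is named, and the labels do not say whether control cells lay on a dish or a device, so the effects of device and pulses cannot be told apart. With 1 library per group no difference has a replicate check, no test was possible, and every interval below is a 95% interval of counting error only.

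The matrices gave 6091 control, 5531 bulk and 6298 localized cells, with median depths of 9542, 11644 and 10980.5 UMIs. All 11 markers of neural stem or progenitor cells reached 5 CPM (counts per 1000000 UMIs of the pool) in each of the 3, while the summed level of 7 microglia or macrophage markers was at most 0.181 CPM. Pairs of libraries shared 6 to 9 cell barcodes. UMIs outside cells made up 17% of the control library against 9.62% of bulk and 9.10% of localized, so the control library stands apart in its background RNA.

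The molecules counted are copies of A-rich stretches caught by oligo(dT). The sequences shown here are A runs, transcript ends and a stretch of Miat that holds splicing factor sites. Malat1 (chromosome 19, 5795690 to 5802672, minus strand, a single exon) carries 1 run of at least 10 A, of 12 letters. It lies in the element where U-rich and A-rich stretches fold into a triple helix and where RNase P cuts after gcaaaa to free the small RNA that follows. The long Neat1 transcript ends in the same letters, and no A run of 10 or more was found in it. The short, polyadenylated Neat1 transcript holds the poly(A) signal. The annotated ends of Malat1 and Kcnq1ot1 hold it too and are not shown. In the sequences below, from GENCODE vM21 on GRCm38, capitals mark the A run or the signal AATAAA.
Malat1, chr19:5795958-5796089, minus strand: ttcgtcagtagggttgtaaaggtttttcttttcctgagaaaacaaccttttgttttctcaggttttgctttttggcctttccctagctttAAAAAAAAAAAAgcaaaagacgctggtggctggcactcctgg
Neat1, long transcript, chr19:5824708-5824767, minus strand: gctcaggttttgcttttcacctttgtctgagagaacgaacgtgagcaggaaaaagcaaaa
Neat1, short transcript, chr19:5842307-5842366, minus strand: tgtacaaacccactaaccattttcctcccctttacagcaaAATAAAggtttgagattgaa

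Kcnq1ot1 (chromosome 7, 143203458 to 143296549, minus strand) is 1 unspliced exon with 10 A runs of at least 10 letters, the longest of 41. Meg3 (chromosome 12, 109541001 to 109571726, plus strand) had 6 such runs in its longest transcript, and Rian (chromosome 12, 109603940 to 109661716, plus strand) had 1. Miat (chromosome 5, 112213228 to 112229395, minus strand) had none, and its longest transcript ends without AATAAA in the last 60 letters. It carries TACTAAC, the letters by which it is known to bind splicing factor 1, in 6 places on the transcript strand. Capitals mark the longest A run of Kcnq1ot1, 3 of the 6 TACTAAC copies of Miat, and AATAAA in the ends of Meg3 and Rian.
Kcnq1ot1, chr7:143226925-143227005, minus strand: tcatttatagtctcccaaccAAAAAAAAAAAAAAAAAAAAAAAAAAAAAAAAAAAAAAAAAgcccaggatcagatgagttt
Miat, chr5:112217304-112217465, minus strand: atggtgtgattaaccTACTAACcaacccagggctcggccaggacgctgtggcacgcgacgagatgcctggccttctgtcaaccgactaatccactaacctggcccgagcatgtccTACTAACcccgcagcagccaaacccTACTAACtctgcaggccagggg
Meg3, chr12:109571667-109571726, plus strand: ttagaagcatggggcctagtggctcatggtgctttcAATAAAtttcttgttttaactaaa
Rian, chr12:109654950-109655009, plus strand: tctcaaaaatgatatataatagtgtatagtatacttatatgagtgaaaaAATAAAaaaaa

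The count of A runs differs between members, and the number of places to prime is not known from the files, so levels are compared between libraries and never between members. The counting strand is not given in the sources used here. Kcnq1ot1 lies within Kcnq1 on the opposite strand (chromosome 7, 143106362 to 143427042), and Malat1, Meg3 and Miat overlap Gm37376, Gm26906 and Gm26953 on the opposite strand. If strand was not read, reads of those genes cannot be told apart from the members' own. On the same strand 31 annotated genes overlap members, among them the long noncoding RNA gene Gm26945 inside Rian.

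Malat1, the speckle RNA, was the most counted gene of the control and bulk libraries and the one at rank 2 in the localized library. Its level in cells was 12112 CPM in control (interval 12084 to 12139), 10046 in bulk (10024 to 10069) and 12426 in localized (12401 to 12451). Bulk stood lowest, at 0.829 times control (0.827 to 0.832), and localized stood close to control at 1.03 times (1.02 to 1.03). The bulk log2 ratio of -0.27 lay at percentile 8.02 of 5810 genes, and the localized one of 0.04 at percentile 43.0 of 5906. With median-of-ratios scaling the localized value turned to -0.04, while bulk stayed below control at -0.33.

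A Malat1 UMI was found in 99.8% of control, 99.5% of bulk and 99.6% of localized cells, and with every cell thinned to 3000 UMIs in 99.5%, 98.9% and 99.2%, no cell being lost to this step. Cells may also hold UMIs of free RNA, so these shares are not shares of expressing cells. No named cell class is known to lack these RNAs, and the levels that bear on this background are those of barcodes of 10 to 100 UMIs and of the small cluster 9, both given below. The typical cell gave 0.976% of its UMIs to Malat1 in control, 0.865% in bulk and 1.05% in localized. The spread between cells was far wider than that between libraries, from 0.148% at percentile 5 to 2.87% at percentile 95 in control. It ran from 0.110% to 2.63% in bulk and from 0.186% to 3.0% in localized cells.

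Kcnq1ot1, the imprinted silencing RNA, was level across the libraries. It stood at 135 CPM in control (132 to 138), 139 in bulk (136 to 141) and 137 in localized cells (135 to 140). The ratio to control was 1.03 for bulk (0.999 to 1.06) and 1.02 for localized (0.989 to 1.05), both intervals holding 1. Under median-of-ratios scaling the log2 values were -0.02 and -0.05. Thinned to 3000 UMIs, 28.0% of control, 31.6% of bulk and 29.1% of localized cells held a Kcnq1ot1 UMI, and unthinned the shares were 56.2%, 65.1% and 61.6%.

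Neat1, the paraspeckle RNA, was the member that was lower after bulk electroporation by the most. Its UMIs are counted per gene, so its short and long transcripts cannot be told apart. It had 880 UMIs in control cells, 497 in bulk and 1058 in localized, or 14.2 CPM (13.3 to 15.2), 6.41 (5.86 to 7.0) and 13.9 (13.1 to 14.8). The bulk library held 0.450 times the control level (0.403 to 0.503), and the localized library 0.975 times (0.891 to 1.07). Neat1 was thus low in 1 library and alike in the other 2 within counting error. It did not reach the 20 CPM that the count of changed genes needed.

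The lower Neat1 of bulk was also seen in fewer cells. A Neat1 UMI was found in 6.78% of control, 5.28% of bulk and 10.1% of localized cells, and after thinning in 2.76%, 1.30% and 3.48%. At least 5 Neat1 UMIs were held by 41 control, 18 bulk and 28 localized cells, with up to 21, 17 and 30 in a single cell. The RNA was thus spread over few cells in all 3 libraries.

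Meg3, reported to act with Polycomb proteins, and Rian, its downstream neighbour and a host of small nucleolar RNAs and microRNAs, stood lowest in control. Meg3 had 98 UMIs in control, 235 in bulk and 295 in localized cells, at 1.59, 3.03 and 3.87 CPM. Its ratio to control was 1.91 for bulk (1.5 to 2.45) and 2.44 for localized (1.94 to 3.10). Rian had 25, 72 and 85 UMIs in the same order, at 0.405, 0.929 and 1.12 CPM, with ratios of 2.30 (1.44 to 3.78) and 2.76 (1.75 to 4.50). For both genes the counting intervals of the electroporated libraries lay above that of control, at levels of under 4 CPM. Thinned to 3000 UMIs, 0.361% of control, 0.886% of bulk and 1.08% of localized cells held a Meg3 UMI. For Rian the thinned shares were 0.213%, 0.235% and 0.286%, from 13, 13 and 18 cells, with overlapping intervals, so a difference in Rian was not detectable at equal depth.

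Miat, which binds splicing factors, was highest in localized cells. It had 84 UMIs in control, 149 in bulk and 297 in localized, at 1.36 CPM (1.08 to 1.68), 1.92 (1.63 to 2.26) and 3.90 (3.47 to 4.37). Localized cells thus held 2.87 times the control level (2.24 to 3.70) and bulk 1.41 times (1.08 to 1.87). After thinning, 0.427% of control, 0.940% of bulk and 1.30% of localized cells held a Miat UMI. Summed markers of the glial classes were also highest in localized cells, where 8 oligodendrocyte precursor markers summed to 959 CPM against 649 in control and 712 in bulk. The sum of 7 oligodendrocyte markers was 18.2 CPM in control, 16.8 in bulk and 44.5 in localized, and that of 9 astrocyte markers 483, 532 and 987. Apoe alone stood at 131, 170 and 497 CPM. Of these markers Lhfpl3 and Slc1a2 stood highest in control and Aldh1l1 in bulk, and the others in localized. No marker of these lists was at 0 apart from 1 oligodendrocyte marker in control, and the part of cell classes in the Miat level of all cells was not tested.

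**Figure D1:**
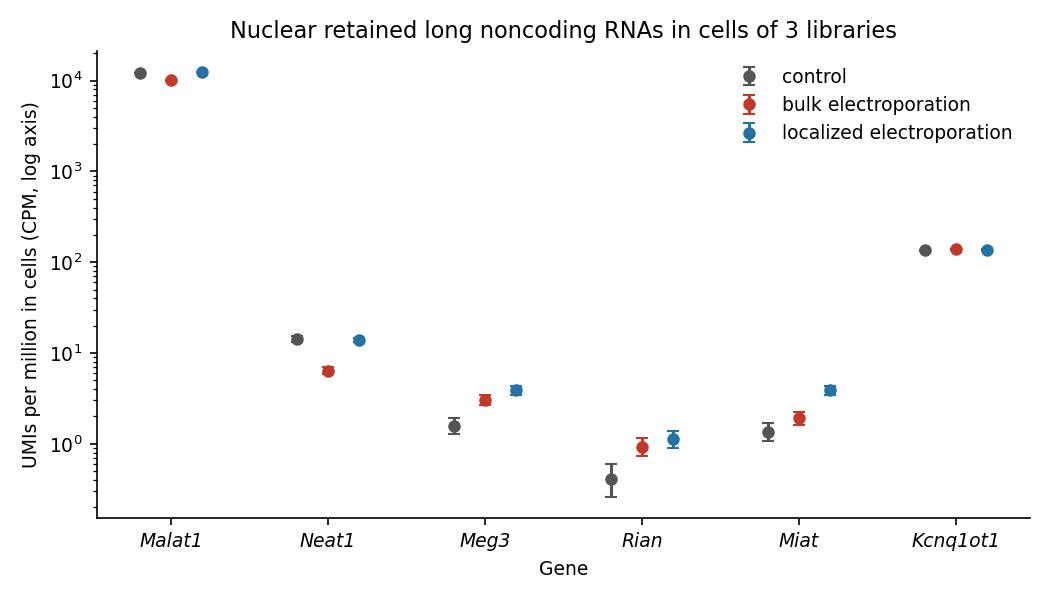
Level of each member in cells (CPM, log axis) in the control, bulk and localized libraries, with exact Poisson 95% intervals of counting error as bars (1 library per group). Neat1 sits at 6.41 in bulk against 14.2 and 13.9, while Meg3, Rian and Miat sit lowest in control and Kcnq1ot1 is level.

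The count of members past 2-fold depended on the pseudocount. The log2 ratios, taken on CPM plus 1, were at least 2-fold lower for 1 of 6 members in bulk over control, which was Neat1 at -1.04, and at least 2-fold higher for none. Of 5810 genes of at least 20 CPM, 0.602% were at least 2-fold lower and 0.602% at least 2-fold higher. In localized over control 1 of 6 members, Miat at 1.05, was at least 2-fold higher against 1.22% of 5906 genes, and none was lower against 1.02%. In bulk over localized 1 of 6 members was at least 2-fold lower, Neat1 at -1.01, against 0.633% of 6002 genes, and none was higher against 0.95%. Only Malat1 and Kcnq1ot1 reached the 20 CPM of these gene counts, so the 2 members past 2-fold are not among the genes behind those percentages. With no pseudocount, 1 member was at least 2-fold higher (Rian) and 1 lower (Neat1) in bulk over control. In localized over control 3 were higher (Meg3, Rian and Miat), and in bulk over localized 2 were lower (Neat1 and Miat). The median log2 ratio of the 6 members was 0.17 for bulk, 0.31 for localized and -0.29 for bulk over localized, beside 0.07, 0.09 and -0.02 over all those genes. The 3 comparisons share libraries and are not independent.

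Depth of the cells moved with some of these values. In bulk, 533 cells of at least 25000 UMIs held Malat1 at 7141 CPM, against 9961 to 11578 in the 4 ranges of lower depth. Between 6000 and 20000 UMIs the Malat1 log2 ratio of bulk over control was -0.12 and that of Neat1 was -1.34. Miat was highest in cells under 6000 UMIs in each library. In bulk it stood at 9.02 CPM in those cells and at 1.01 in cells from 15000 up to 25000 UMIs. In localized cells the same ranges gave 8.63 and 2.82 CPM, and cells of at least 25000 UMIs gave 4.95. The part of depth in these ratios was not tested further.

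Kcnq1ot1, Miat and Neat1 differed widely between classes of cells. The cells formed 10 clusters, built without the members and without mitochondrially encoded genes, and named only from marker genes. Cluster 3 (led by Pdgfra, Sox10 and Lhfpl3) and cluster 5 (Pdgfra and Lhfpl3, with histone genes) were oligodendrocyte precursor-like, cluster 4 (Apoe, Aqp4, Ndrg2) was astrocyte-like and cluster 8 (Enpp6, Mbp) was oligodendrocyte-like. Cluster 2 was led by the mitotic genes Cdc20 and Cenpa. Clusters 0 (Hbegf, Aldh1a3, Hmox1), 1 (histone genes), 6 (Gdf15, Trib3, Atf3, Ddit3, mostly control cells), 7 (Ifit1, Ifit3, Rsad2, mostly bulk cells) and 9 (histone genes) stayed unnamed. No doublet caller was run, and levels of clusters are descriptions with no test.

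Kcnq1ot1 was highest in the 3 clusters of the oligodendrocyte lineage. In the precursor-like cluster 3 it stood at 234 CPM in control, 277 in bulk and 226 in localized cells, and in cluster 5 at 208, 240 and 211. The astrocyte-like cluster 4 held 114, 114 and 134. The order of these classes was the same in the 3 libraries. In cluster 8, of 60, 30 and 110 cells, it was 247, 253 and 237 CPM. Inside clusters bulk was above control in 5 of 7, from 0.820 times in cluster 1 (0.764 to 0.879) to 1.79 times in cluster 6 (1.61 to 1.98). Localized was above control in 4 of 8, from 0.795 times in cluster 2 (0.740 to 0.854) to 1.58 times in cluster 6 (1.30 to 1.91). The ratios inside clusters thus lay on both sides of 1.

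Miat followed the same classes. In cluster 3 it stood at 7.84 CPM in control, 12.3 in bulk and 18.9 in localized cells. In cluster 5 it stood at 1.86, 7.51 and 7.08 CPM. In clusters 0, 1, 2, 4 and 6 it was at most 2.84 CPM in any library. In cluster 8 it stood at 11.7, 5.76 and 13.7 CPM, from as few as 2 UMIs in the bulk library's 30 cells. The higher localized value was seen inside cluster 3 as well, at 2.41 times control (1.65 to 3.59). Cells of cluster 3 were also shallow, with median depths of 4888 UMIs in control, 5766 in bulk and 7170 in localized. The parts of depth and of cell class in the Miat level were not tested apart.

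Neat1 was distributed otherwise. It was high in cluster 0 at 22.2, 9.04 and 26.6 CPM and in the astrocyte-like cluster 4 at 28.2, 7.90 and 23.6 CPM, in the order control, bulk, localized. In the precursor-like cluster 3 it was at 5.44, 0.660 and 7.46 CPM. Cluster 6 held 20.8, 16.4 and 25.9 CPM, and the 400 bulk cells of cluster 7 held 11.6 CPM, so in bulk these stood above clusters 0 and 4. Bulk was below control in 7 of 7 clusters with at least 50 cells in both libraries, at 0.121 to 0.788 times. The lowest ratio, that of cluster 3, rested on 3 bulk UMIs against 25 in control (0.0234 to 0.397). The ratio in cluster 6, of the stress genes Atf3 and Ddit3, was 0.788 (0.593 to 1.04) and that in cluster 5 was 0.646 (0.193 to 1.96), both with intervals that hold 1.

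Malat1 was highest in the astrocyte-like cluster at 17810 CPM in control, 14477 in bulk and 17584 in localized cells. Bulk was below control in 7 of 7 clusters, at 0.754 to 0.987 times, and localized was above control in 2 of 8. The interferon-led cluster 7 held 6896 CPM in its 400 bulk cells. The smallest cluster, 9, held 516 CPM in 30 bulk cells and 980 in 31 localized cells, with 0 Kcnq1ot1 UMIs in the former and 1 in the latter. Meg3 was above control in 7 of 7 clusters for bulk and 7 of 8 for localized, and Miat in 8 of 8 for localized, each on few UMIs per cluster.

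**Figure D2:**
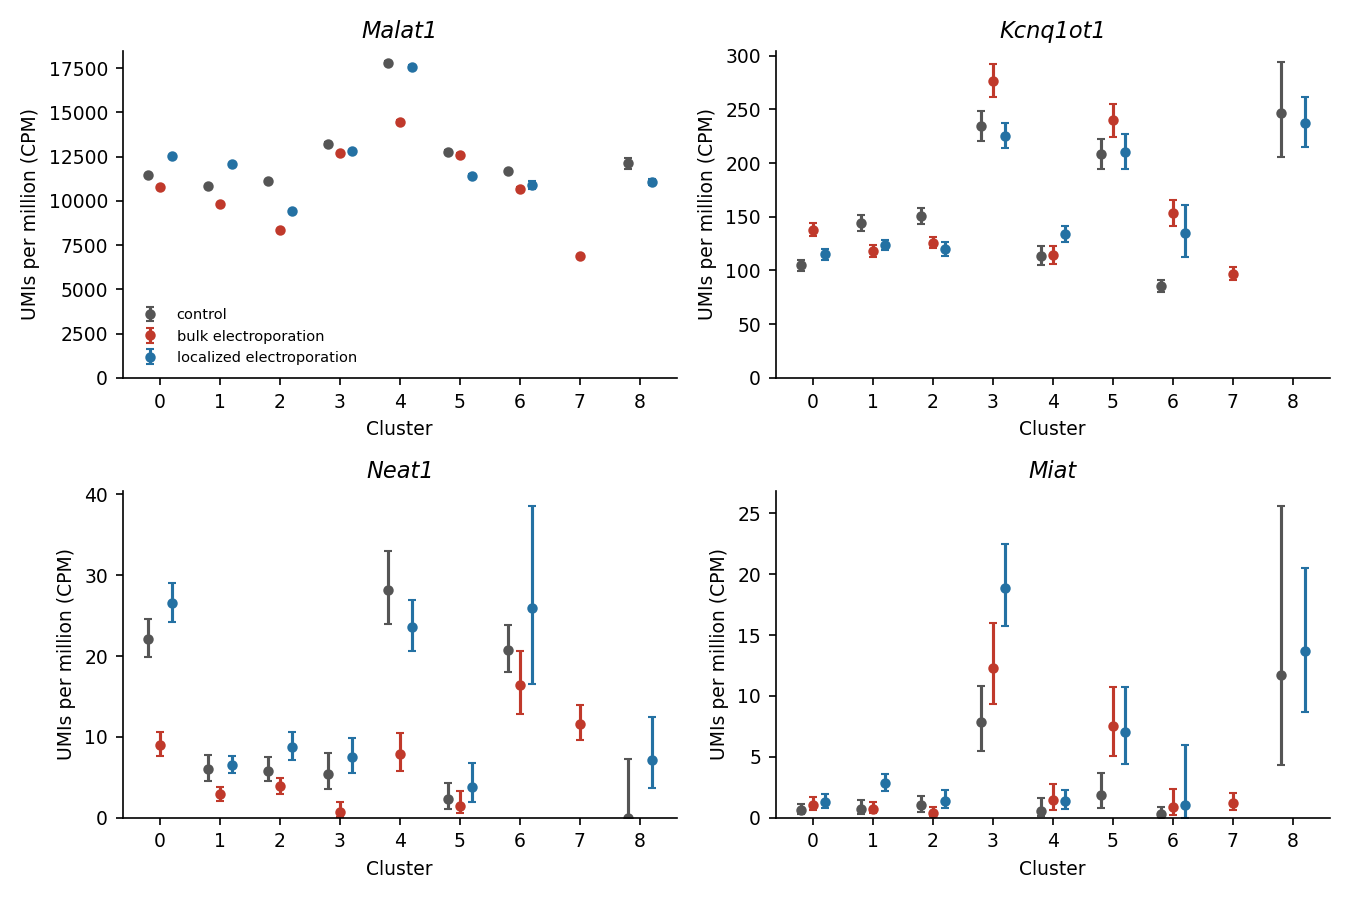
Levels of Malat1, Kcnq1ot1, Neat1 and Miat (CPM) in each cluster with at least 50 cells in a library, with exact Poisson 95% intervals as bars. Kcnq1ot1 and Miat are high in cluster 3, and Neat1 is highest in clusters 0, 4 and 6 in control and localized and in clusters 6 and 7 in bulk. Neat1 in bulk (red) lies under control in each cluster that both have.

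Over 24 cluster-by-library sums, centred within each library, the genes most like each member among 5135 genes were named by Pearson r of log2(CPM + 1). Malat1 went with mt-Atp8 (r = 0.83) and with Hmgcs1 (0.81) and Cyp51 (0.77), both of cholesterol synthesis. Neat1 went with the metallothionein Mt1 (0.90), Pdlim7 (0.89) and AI413582 (0.89). Kcnq1ot1 went with Prdm2 (0.96), Pafah1b3 (0.95) and Rnf20 (0.95). Kcnq1ot1 and Miat went together at r = 0.89, and Neat1 ran against Kcnq1ot1 at -0.76 and against Miat at -0.72. These points share libraries and cell classes, so the r values are descriptions.

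Bulk cells split by the antiviral response differed in Neat1. The 1890 bulk cells with a UMI of the interferon-response genes Cxcl10, Isg15, Ifit1, Rsad2 or Oasl1 held 8.92 CPM of Neat1, and the 3641 without held 4.47. Both lay under the control level. Malat1 stood at 9232 and 10677 CPM in the same order, Kcnq1ot1 at 121 and 152, and Miat at 1.09 and 2.57. The split was made with every cell thinned to the same depth, so a deeper cell did not more easily show an interferon UMI. Before thinning, the bulk cells with such a UMI had a median depth of 13439 UMIs, against 10788 in those without. The part of depth in the levels of this split was not tested.

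Cells rich in Malat1 also held more Kcnq1ot1 and Neat1. When the cells of each library were put in 4 equal groups by their Malat1 share, Kcnq1ot1 was higher at every step, from 59.8 to 208 CPM in control, from 54.3 to 237 in bulk and from 61.9 to 203 in localized. Neat1 went from 4.53 to 32.5, from 3.57 to 12.1 and from 5.91 to 31.9 CPM between the lowest and the highest group. The order of the groups was thus the same for both RNAs in each library. Meg3 and Miat, on fewer UMIs, were also higher at every step. Meg3 went from 0.976 to 2.19 CPM in control, from 1.83 to 4.66 in bulk and from 2.31 to 6.62 in localized. Miat went from 0.627 to 2.13, from 0.824 to 3.13 and from 2.76 to 5.92 CPM in the same order. Rian was not higher at every step in control and localized. The mitochondrial share moved in the same direction, from 3.27% to 4.08% of UMIs in control, from 3.38% to 4.97% in bulk and from 3.19% to 3.88% in localized. The share of ribosomal protein transcripts moved the other way, from 26.4% to 23.3%, from 24.9% to 20.9% and from 23.4% to 20.4%. Over single cells thinned to the same depth, Malat1 and Kcnq1ot1 had r values of 0.23 for control, 0.26 for bulk and 0.21 for localized cells. Malat1 and Neat1 had 0.11, 0.08 and 0.11. The r values with Meg3, Rian and Miat were at most 0.04, where only 13 to 82 thinned cells held a UMI of both genes. With the summed mitochondrially encoded genes, which are not nuclear, Malat1 had 0.23, 0.41 and 0.32.

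**Figure D3:**
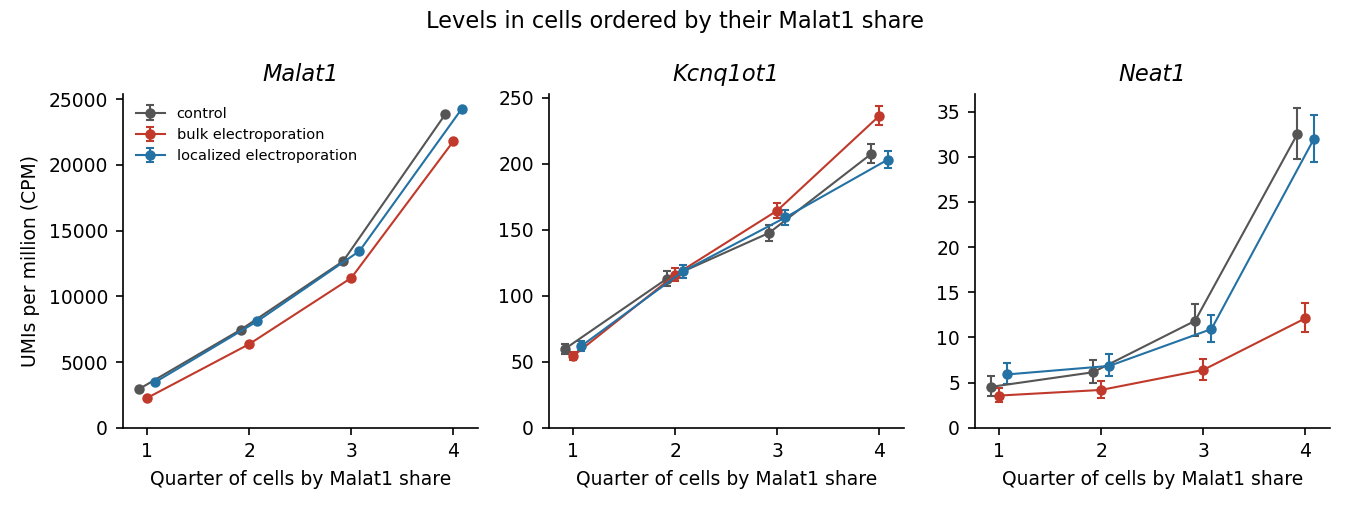
Levels of Malat1, Kcnq1ot1 and Neat1 (CPM) in 4 equal groups of cells ordered by their Malat1 share, from lowest (1) to highest (4), with exact Poisson 95% intervals as bars. Malat1 itself set the order, and Kcnq1ot1 goes from 59.8 to 208 in control, with the same order in the other 2 libraries.

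Cells nearly without Malat1 were few and were poor in Kcnq1ot1 too. No Malat1 UMI was found in 12 control, 28 bulk and 28 localized cells. Under 0.1% of UMIs, a limit chosen after the data were seen, lay 2.81% of control cells (2.41 to 3.25), 4.19% of bulk (3.68 to 4.76) and 2.40% of localized (2.03 to 2.81). Kcnq1ot1 in these cells stood at 12.6, 17.2 and 13.5 CPM, against 135, 139 and 137 CPM over all cells. Their median depths of 7779, 11304.5 and 8148 UMIs were below those of all cells. Their median mitochondrial shares were 2.60%, 2.56% and 2.60%, against 3.44%, 4.12% and 3.42% over all cells. In cells with no Malat1 UMI these shares were 2.40%, 0.124% and 0.374%. Without the cells under 0.1% Malat1 the Malat1 log2 ratio of bulk over control was -0.22.

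Malat1 was higher in cells of a higher mitochondrial share. In cells of 0 to 2%, 2 to 4%, 4 to 6% and 6 to 20% mitochondrial UMIs it stood at 8504, 11441, 13920 and 16032 CPM in control. The same steps gave 3061, 8290, 11625 and 14739 in bulk, and 8665, 11553, 15054 and 19613 in localized cells. Bulk was lowest in every range, by the most in the range of 0 to 2%, which held 228 bulk cells. Neat1 over the same ranges stood at 10.1, 12.9, 18.9 and 13.8 CPM in control, so it was lower again in the last. It went from 3.31 to 13.9 CPM in bulk and from 8.32 to 48.1 in localized cells. Kcnq1ot1 was higher at each step up to the range of 4 to 6% in each library, and beyond it the libraries did not go one way.

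**Figure D4:**
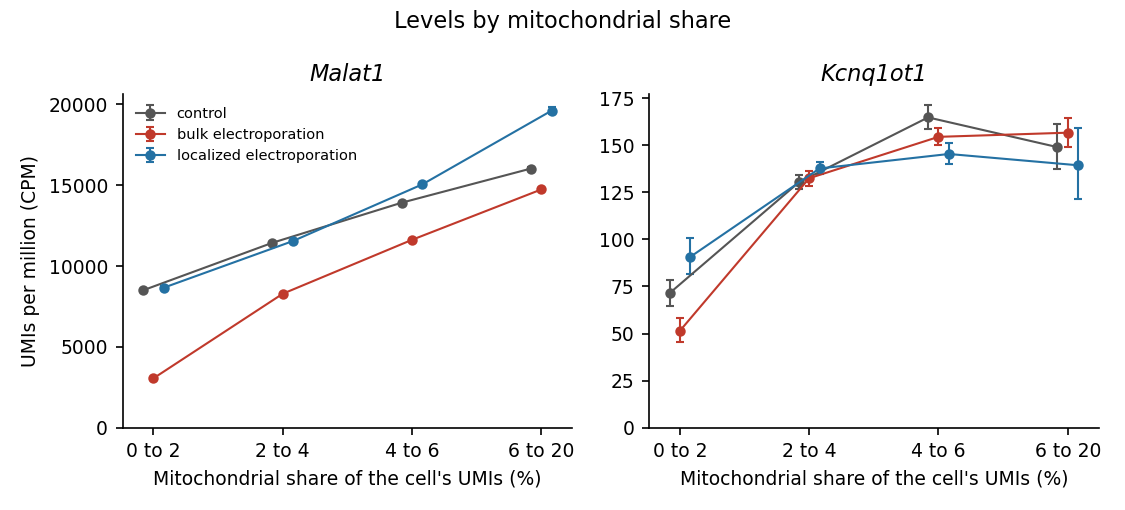
Levels of Malat1 and Kcnq1ot1 (CPM) in cells grouped by the mitochondrial share of their UMIs (%), with exact Poisson 95% intervals as bars. Malat1 is higher at every step in the 3 libraries and bulk (red) lies lowest in each range.

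Outside cells, Kcnq1ot1 was scarcer than in cells. In barcodes of 10 to 100 UMIs it stood at 76.1 CPM in control (66.6 to 86.7), 87.3 in bulk (78.0 to 97.4) and 59.3 in localized (50.5 to 69.1). That was 0.565 times the level of cells in control (0.493 to 0.645), 0.630 times in bulk (0.562 to 0.704) and 0.432 times in localized (0.368 to 0.504). The log2 ratio of -1.20 in localized lay at percentile 0.415 of 5782 genes. It made Kcnq1ot1 the 1 member of 6 at least 2-fold lower outside cells there, beside 2.35% of genes.

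Malat1 also lay below its cell level, at 10032 CPM in control, 8550 in bulk and 6952 in localized, with log2 ratios of -0.27, -0.23 and -0.84. At percentiles 42.2, 70.9 and 6.43, Malat1 was an ordinary gene outside cells in control and bulk and a low one in localized. In control barcodes of 10 to 50 UMIs the direction turned, with log2 ratios of 0.07 for Malat1 and 0.08 for Kcnq1ot1. No member was at least 2-fold lower in control or bulk, beside 2.5% and 0.919% of genes. None was at least 2-fold higher in any library, beside 1.04% of genes in control, 0.312% in bulk and 0.502% in localized. Over the 6 members the log2 ratio had a median of -0.21 for control, -0.0011 for bulk and -0.19 for localized. Over all genes of at least 20 CPM in cells or in these barcodes the medians were -0.15, -0.37 and -0.35. Only Malat1 and Kcnq1ot1 reached that limit, so these medians are of unlike sets of genes. The pseudocount draws the ratios of the other members towards 0.

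Neat1 in the same barcodes rested on few UMIs. It had 24, 44 and 37 UMIs, or 8.02 CPM in control (5.14 to 11.9), 12 in bulk (8.72 to 16.1) and 13.4 in localized (9.41 to 18.4). In bulk this was 1.87 times the level of cells (1.34 to 2.55), in control 0.563 times (0.359 to 0.843) and in localized 0.963 times (0.674 to 1.34). The intervals of the 3 libraries overlapped outside cells, where bulk, the lowest in cells, was not the lowest. These barcodes had medians of 75 UMIs in control, 37 in bulk and 26 in localized, so they are not alike in size between libraries. Meg3, Rian and Miat had 2 to 15 UMIs there in each library, and their ratios to cells had intervals that hold 1.

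Between these barcodes and cells lay a range where the libraries parted. In barcodes of over 300 and up to 1000 UMIs Malat1 stood at 32582 CPM in control, 6047 in bulk and 2150 in localized. Kcnq1ot1 stood at 218, 42.6 and 13.8 CPM there. Control barcodes of this size were thus above control cells for both RNAs, and those of the electroporated libraries were below their cells. In barcodes of over 100 and up to 300 UMIs Malat1 stood at 9210, 4887 and 2292 CPM, and the control library had 44339 such barcodes against 5216 and 5439.

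**Figure D5:**
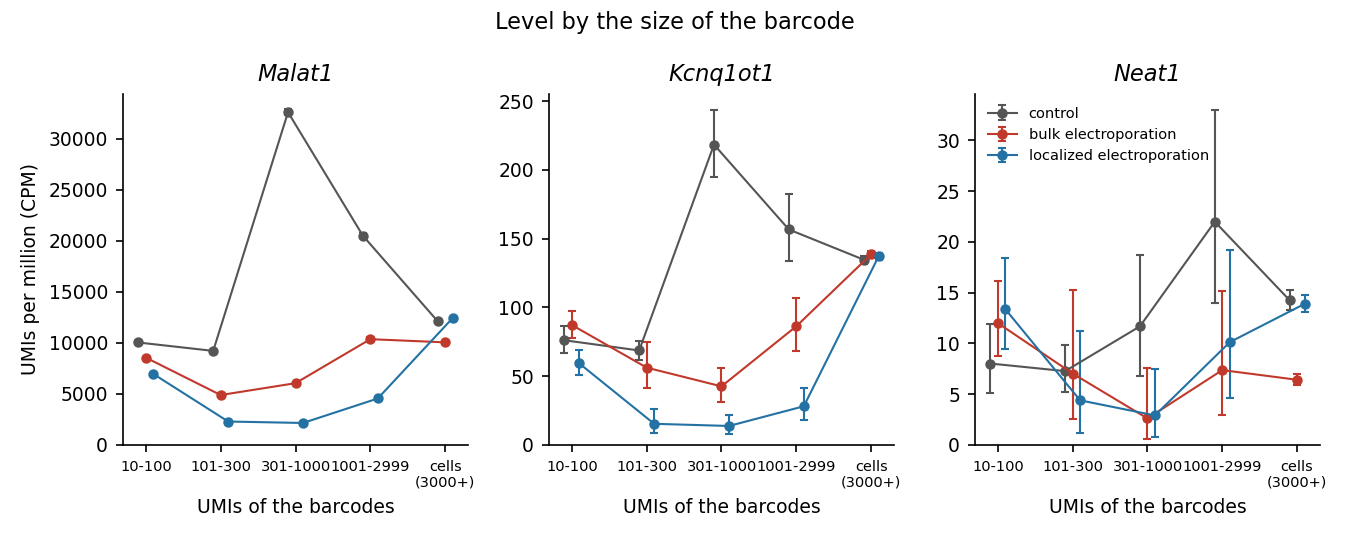
Levels of Malat1, Kcnq1ot1 and Neat1 (CPM) in barcodes of increasing size up to cells, with exact Poisson 95% intervals as bars. In barcodes of over 300 and up to 1000 UMIs control stands at 32582 for Malat1 and localized at 2150. Cells of the 3 libraries lie closer together for Malat1 and Kcnq1ot1. Neat1 in cells is at 6.41 in bulk against 14.2 in control and 13.9 in localized.

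The proteins and RNAs that work with these members were described by their counts, over listed genes of at least 5 CPM in a library. Over all 9914 genes that passed this limit, 65.2% lay above and 34.8% below 0 in bulk over control, and 66.4% and 33.6% in localized over control, with medians of 0.10 and 0.12. At least 2-fold higher were 0.938% in bulk and 1.63% in localized, and at least 2-fold lower 0.565% and 0.898%. All 15 paraspeckle protein genes passed, and 8 lay above and 7 below 0 in bulk over control, with a median log2 ratio of 0.02 and none past 2-fold. In localized over control 6 lay above and 9 below, with a median of -0.09. Median-of-ratios scaling lowers every log2 ratio to control by 0.06 in bulk and 0.07 in localized, so genes this close above 0 change side under it. Sfpq and Nono code for core paraspeckle proteins. Sfpq stood at 241 CPM in control, 330 in bulk and 241 in localized, and Nono at 205.4, 194 and 190 CPM. The lower Neat1 gene count of bulk thus had no counterpart of its size in these protein genes.

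The 16 speckle and splicing factor genes split 8 above and 8 below 0 in bulk and 12 above and 4 below in localized, with medians of -0.01 and 0.17 and none past 2-fold. Srsf7, a splicing factor, stood at 306 CPM in control, 314 in bulk and 469 in localized. The 8 splicing regulators reported to bind Miat or Malat1 had medians of 0.07 and 0.09. Sf1, splicing factor 1 itself, stood at 74.0, 90.1 and 74.4 CPM.

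Genes around Malat1 and Neat1 on chromosome 19 were higher in both electroporated libraries. Of 10 listed neighbours 7 passed, and 7 of 7 lay above 0 in each comparison with control, with medians of 0.30 and 0.48, while Malat1 and Neat1 themselves were below control in bulk. Frmd8 stood at 27.5 CPM in control, 53.4 in bulk and 50.5 in localized. None was past 2-fold.

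In the Dlk1-Dio3 domain of Meg3 and Rian, the paternally expressed Dlk1 was the 1 gene of 6 to reach 5 CPM, at 3.08 CPM in control, 3.43 in bulk and 6.75 in localized. In the domain of Kcnq1ot1, Cdkn1c, a cell cycle inhibitor gene that Kcnq1ot1 is known to silence on the paternal chromosome, stood at 17.9, 17.4 and 35.8 CPM. Kcnq1ot1 itself was level, as given above. Of 10 genes of the imprinted gene network that passed, 7 lay above 0 in bulk and 6 in localized, and Plagl1, a zinc finger gene, was past 2-fold in bulk at 14.0 CPM against 5.26.

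Other long noncoding RNAs were counted in the same way. Of 14 other nuclear or chromatin associated ones 7 passed, and 6 lay above 0 in each comparison with control, with medians of 0.10 in bulk and 0.41 in localized. Tug1 stood at 18.2 CPM in control, 26.7 in bulk and 26.7 in localized, and Pantr1 at 159, 170 and 267. Of 8 that are found largely in the cytoplasm or host small nucleolar RNAs, 3 lay above and 5 below 0 in each comparison, with medians of -0.26 and -0.08. Of these 8, 2 were at least 2-fold lower in each, beside 0.565% of genes in bulk and 0.898% in localized, and the difference between both kinds was not tested. Snhg1 stood at 384 CPM in control, 131 in bulk and 141 in localized, and Snhg12 at 196, 96.2 and 48.5.

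Messenger RNAs reported to be held in the nucleus were mostly lower. Of 6 that passed, 5 lay below 0 in each comparison with control, with medians of -0.47 in bulk and -0.17 in localized. Clk4, a kinase gene of splicing factors, stood at 49.3 CPM in control, 25.5 in bulk and 36.6 in localized. Of 11 genes of the exosome, RNase P and nuclear RNA decay, 4 lay above and 7 below 0 in bulk and 6 and 5 in localized. The 8 Integrator and cleavage factor genes split 4 and 4 in both. None of these was past 2-fold.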

How the data were processed

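Transcript 3' ends of 3 libraries were deposited by the authors as counts, whole UMIs per gene and barcode for all barcodes. Per the submitters' processing notes, Cell Ranger 6, Seurat 4.0.4 and GRCm38 were used. Cell Ranger 4 is written in the matrices, per the file headers. Which annotation was used, and whether strand was read, is not given in the sources used here. All 6 members and the gene lists were chosen with earlier results of these data known.

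UMIs were summed over cells, or over barcodes of 10 to 100 UMIs, and scaled to the total (CPM). A pseudocount of 1 CPM was added before taking log2 ratios, so changes of low genes are understated. A gene entered the counts past 2-fold when it reached 20 CPM in one pool or both. Intervals are exact Poisson for levels, exact conditional for ratios and exact Clopper-Pearson for shares, all at 95%. Each cell was thinned to 3000 UMIs for shares of cells and for the split by interferon genes. For clustering, 2000 variable genes per library were chosen with scanpy 1.11.5, and 3948 genes were used. Each gene was standardized within each library before pooling, which takes away mean differences between libraries. The 30 principal components and 15 neighbours came from scikit-learn 1.9.0, and the clusters from leidenalg 0.10.2 (Leiden resolution 0.5). Levels were compared within clusters of at least 50 cells in both libraries. Named genes were the members, up to 4 genes per list with the largest ratios and the 3 genes most like each member of at least 5 CPM. Nono, Sfpq, Sf1, Srsf7, Tug1 and Pantr1 were named for their role or after their values were seen. The ranges of barcode size, depth and mitochondrial share, the split by interferon genes, the printed sequences and the groups of cells by Malat1 or Neat1 were also chosen after the data were seen. Totals were 74429007, 85743257 and 83803032 UMIs in control, bulk and localized. The 2-fold rule was tested on simulated sums for genes of at least 20 CPM, a level that Neat1, Meg3, Rian and Miat did not reach. Other steps were not tested on simulated data. Some genes that these rules take are left out of the text. Python 3.11.15, numpy 2.4.6 and scipy 1.17.1 were used.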

Additional observations from a re-analysis of the deposited data

Results flagged for a closer look

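Malat1 moved in opposite directions in the electroporated libraries, at 0.829 times control in bulk and 1.03 times control in localized cells. With 1 library per group this difference was not tested. The localized value lay below control under median-of-ratios scaling, at a log2 ratio of -0.04.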

How the results depend on the processing

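Over 10 alternatives the log2 ratio of Neat1 in bulk over control ranged from -1.34 to -1.01, that of Malat1 from -0.33 to -0.09 and that of Miat in localized over control from 0.53 to 1.45, the last from the largest cluster alone to a pseudocount of 0.1 CPM. Neat1 in localized over control ranged from -0.13 to 0.25 and Kcnq1ot1 in bulk over control from -0.02 to 0.40. The median of the 6 members was 0.39 in bulk over control in the largest cluster alone (0.17 in all cells) and 0.64 in localized over control with a pseudocount of 0.1 CPM (0.31). Barcodes of over 100 and up to 300 UMIs, added after the data were seen, gave member medians of -0.69 in bulk and -1.34 in localized, against -0.0011 and -0.19. A filter of 5 CPM gave 92 higher and 56 lower genes in bulk over control, 158 higher in localized over control, and 106 higher and 85 lower in bulk over localized. With no filter the counts were 134 and 59, 211 and 112, and 145 and 103. Outside cells, lower genes numbered 82 in control with barcodes of 10 to 50 UMIs, and 121 in bulk and 281 in localized with 5 CPM, against 146, 53 and 136. The higher counts come from testing more low genes. Median-of-ratios scaling moved all genes by -0.06 and -0.07 against control. Of 270 values of single members under alternatives 61 moved beyond counting error. Meg3, Rian and Miat rest on at most 297 UMIs in a library. No paired analysis was possible because each group had 1 library.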

Other observations

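Cells rich in Malat1 carried more transcripts of long genes. The 25% of cells with the highest Malat1 share were set against the 25% with the lowest in each library, over 2526 genes of at least 50 CPM in every library, a comparison added after the data were seen. In all 3 libraries 218 genes had a log2 ratio of at least 0.5 and 9 genes had one of at most -0.5. The 218 genes had a median length of 83571 bases on the chromosome and 7047 in their longest transcript, against 16953 and 2786.5 bases over the 2526 genes, and the 9 genes had 3751 and 1202 (GENCODE vM21). Genes at least 2-fold higher in every library included Trip11, a Golgi protein gene, Dst and Sptbn1, of the cytoskeleton, Jmjd1c, of the histone demethylase family, and Itgb8, an integrin gene. Dst had log2 ratios of 1.11 in control, 1.09 in bulk and 1.14 in localized. The lowest were Selenoh, at -0.82, -0.80 and -1.08, and the centromere gene Cenpm, at -0.70, -0.71 and -1.0. Within the largest cluster 194 genes were higher and 106 lower by the same limit, with median lengths of 74013.5 and 10257 bases. The Malat1-rich cells had median depths of 10336, 12040 and 11001 UMIs against 8820, 11346 and 10133, and the part of depth or of cell cycle stage in this pattern was not tested.

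Cells with at least 3 Neat1 UMIs, 88 in control, 34 in bulk and 79 in localized, were set against cells with none in the same way. Of the same genes 2 were at least 2-fold higher in every library, Hbegf, a growth factor gene, at 1.18, 1.41 and 2.12, and Tnfrsf12a, a cytokine receptor gene, at 1.34, 1.11 and 1.75. Hmox1, the heme-degrading stress enzyme, had 1.23, 0.91 and 2.33, and Cdkn1a, the cell cycle inhibitor, 0.85, 1.00 and 0.72. Within the largest cluster only 39 control, 11 bulk and 44 localized cells held at least 3 Neat1 UMIs. Over these cells 1 gene was at least 2-fold higher in every library and 11 were lower. There Hbegf had 1.08, 1.11 and 1.57, Tnfrsf12a 1.18, 0.68 and 1.5, and Hmox1 1.26, 0.47 and 2.08. All 3 of these genes are among the leading genes of cluster 0, in which Neat1 is high. Over all cells the mitotic genes Cdc20, at -1.44, -1.33 and -1.0, and Pimreg, at -1.08, -1.63 and -1.24, were at least 2-fold lower in each. The Neat1-rich bulk cells had a median of 27833.5 UMIs against 11481 in cells without Neat1, so they are not matched in depth, and no test was made.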
